A study of Mus musculus with 8 samples.

Results

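Promoter to distal peak loops are chromatin contacts that join the start of a protein-coding gene to a distal region carrying H3K27ac, the histone acetylation found at active enhancers and promoters. They were taken from H3K27ac HiChIP, an assay in which neighbouring DNA fragments in the nucleus are ligated and the ligation products are enriched with an antibody. A loop was kept where its distance was under 500 kb, where both of its 5 kb bins carried the caller's peak flag, and where exactly 1 of both bins held the start site of a canonical protein-coding transcript (GENCODE mouse release M39, GRCm39). The bin with the start site is the promoter bin, and the other bin is its distal partner. In cells with the CEBPA isoform p30 these loops numbered 20382 of 80489 untreated (UT, 25.3%) and 25135 of 94609 after LPS (26.6%), and with p42 40277 of 158233 untreated (25.5%) and 19984 of 78591 after LPS (25.4%). Over the 4 lists there were 51460 distinct promoter to distal peak loops among 214313 distinct loops, and they joined 8180 promoter bins to 30275 distal bins.

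The cells were HPC-7, a mouse haematopoietic progenitor line that grows in stem cell factor and has very little CEBPA of its own. All groups were transduced with a retrovirus that also encodes GFP, and GFP-positive cells were sorted, so that each line is a transduced pool. In p42 cells the virus carried the full-length isoform of the transcription factor CEBPA, and in p30 cells the amino-terminally truncated isoform found in acute myeloid leukaemia. Whether the isoform was fused to a hormone-inducible domain was not given in the labels of these samples. The paper describes p42 and p30 HPC-7 lines with such a fusion, which received hydroxytamoxifen before experiments. It also describes separate lines with unfused isoforms. UT cells received no LPS, and LPS cells received 100 ng/mL of bacterial lipopolysaccharide for 2 h. There were 8 samples, with 2 replicates per group, and 1 list of significant loops per group in which both replicates are pooled. No spread between replicates was therefore measured, no test between groups was possible, and every difference below compares those 4 lists. Intervals are 95% intervals that cover counting error only. Where 4 values stand in a row, p30 precedes p42 and UT precedes LPS within each.

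Distal enhancers act on promoters across the DNA between them, and a promoter can be contacted by several enhancers just as an enhancer can contact several promoters. The gene nearest to an enhancer in the sequence need not be the gene it contacts, which is why contact maps are used to pair them. In myeloid progenitors C/EBP factors and PU.1 (Spi1) occupy many such enhancers. LPS is sensed by TLR4 and activates NF-kB and AP-1, dimers of FOS, JUN and related proteins, at promoters and enhancers of inflammatory genes.

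The sequences below show what lay at the ends of loops that the results return to. The first pair are the 150 bases before the start sites of Nfkbia and Tnfaip3, which encode inhibitors of NF-kB signalling, printed on the strand of the gene. The others are windows of 120 bases on the plus strand within distal partners. Each lies in the distal bin with most contacts among the loops of that gene that were in all 4 lists, had no exon of a protein-coding gene and held a motif match, and it is centred on a match. All were read from GRCm39. Capitals mark matches, on either strand, to TGACTCA (AP-1), TGATGCAA (the composite C/EBP and ATF motif), TTGCGCAA (C/EBP) or GGNNTTTCC (NF-kB).
Nfkbia promoter, chr12:55539433-55539582, minus strand: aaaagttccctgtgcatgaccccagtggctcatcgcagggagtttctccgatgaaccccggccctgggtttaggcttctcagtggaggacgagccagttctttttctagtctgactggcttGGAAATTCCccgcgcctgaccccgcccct
Tnfaip3 promoter, chr10:18891187-18891336, minus strand: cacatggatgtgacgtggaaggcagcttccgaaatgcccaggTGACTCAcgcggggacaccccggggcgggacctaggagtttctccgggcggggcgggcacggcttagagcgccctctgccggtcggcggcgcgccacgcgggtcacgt
Nfkbia partner at 100 kb, chr12:55435931-55436050: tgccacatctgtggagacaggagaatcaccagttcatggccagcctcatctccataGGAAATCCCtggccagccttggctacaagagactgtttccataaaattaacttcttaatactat
Tnfaip3 partner at 155 kb, chr10:19046064-19046183: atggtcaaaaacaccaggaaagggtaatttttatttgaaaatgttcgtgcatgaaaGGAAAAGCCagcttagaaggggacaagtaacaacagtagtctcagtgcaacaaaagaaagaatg
Ccl3 partner at 85 kb, chr11:83627732-83627851: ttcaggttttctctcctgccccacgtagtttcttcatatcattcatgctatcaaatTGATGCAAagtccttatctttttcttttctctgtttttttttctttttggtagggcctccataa
Cebpb partner at 65 kb, chr2:167596107-167596226: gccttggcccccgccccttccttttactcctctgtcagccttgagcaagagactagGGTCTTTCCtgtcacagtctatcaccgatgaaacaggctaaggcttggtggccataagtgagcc
Cebpe partner at 80 kb, chr14:55025781-55025900: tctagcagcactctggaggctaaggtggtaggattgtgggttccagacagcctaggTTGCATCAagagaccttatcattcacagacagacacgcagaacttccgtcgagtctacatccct
Fos partner at 85 kb, chr12:85435479-85435598: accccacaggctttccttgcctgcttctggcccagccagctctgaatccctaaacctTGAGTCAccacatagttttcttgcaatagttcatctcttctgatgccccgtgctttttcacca
Lmo2 partner at 25 kb, chr2:103778694-103778813: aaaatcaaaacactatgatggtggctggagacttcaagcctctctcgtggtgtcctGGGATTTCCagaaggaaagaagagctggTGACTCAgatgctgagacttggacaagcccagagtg
Spi1 partner at 10 kb, chr2:90916837-90916956: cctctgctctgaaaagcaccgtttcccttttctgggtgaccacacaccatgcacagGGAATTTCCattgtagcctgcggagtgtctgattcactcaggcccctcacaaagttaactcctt

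The Nfkbia promoter window holds an NF-kB match and the Tnfaip3 promoter window an AP-1 match. Among the 150-base windows before all 21757 canonical starts, 3.15% held an NF-kB match and 2.46% an AP-1 match. The distal windows of Ccl3 and Cebpe are centred on the composite of C/EBP and ATF, that of Fos on AP-1, and those of Nfkbia, Tnfaip3, Cebpb and Spi1 on NF-kB. The Lmo2 window holds an NF-kB and an AP-1 match. Of 1241275 windows of 120 bases tiling the distal partners, 2.19% held an AP-1 match, 1.75% an NF-kB match and 0.277% the composite. The windows were chosen to hold a match, and a match is a description of letters, not of a bound site.

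The line was checked against its markers in the same loops. Of 12 progenitor markers (among them Kit, Gata2, Tal1 and Lyl1), 11 had a distal partner in p30 UT and 12 in each of the other lists. Of the 19 T and B cell markers found in the annotation, 2 to 4 had a partner per list, and of 20 neuron and liver markers 1, Slc17a7. The number of contacts in the caller's model was 17976716 and 14503330 in p30 (UT and LPS) and 18999991 and 15831583 in p42. The p42 UT list was the longest and had the most loops and the most partners per promoter. Counts are therefore also given for lists of equal size, the 78591 loops of each list with the smallest q-values, in which 19965 and 21331 members remained for p30 and 22010 and 19984 for p42. Equal size is not an equal threshold, and p42 UT lost the most loops to this cut. The median contact count of the members was then 20 and 21 in p30 (UT and LPS) and 29 and 20 in p42. A partner missing from an equal-size list can still be in the list as deposited.

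A looped promoter had on average several distal partners. The mean number of partners per promoter bin was 3.47 and 3.95 in p30 (UT and LPS) and 5.32 and 3.48 in p42, over 5873, 6365, 7572 and 5744 promoter bins. Medians were 2, 3, 4 and 2. The means lay closer together in lists of equal size, at 3.44, 3.64, 3.79 and 3.48. The distribution had a long upper tail. Promoters with 1 partner made 32.5% and 29.4% of the looped promoters in p30 (UT and LPS) and 19.8% and 33.1% in p42. Promoters with 10 or more partners numbered 335, 537, 1191 and 343, or 5.7%, 8.44%, 15.7% and 5.97%, and carried 21.3%, 28.8%, 41.8% and 22.5% of the loops. Their number was, in lists of equal size, 322, 379, 420 and 343. Of all 20359 bins with a canonical start site, 40.2% had a distal partner in at least 1 list.

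**Figure D1:**
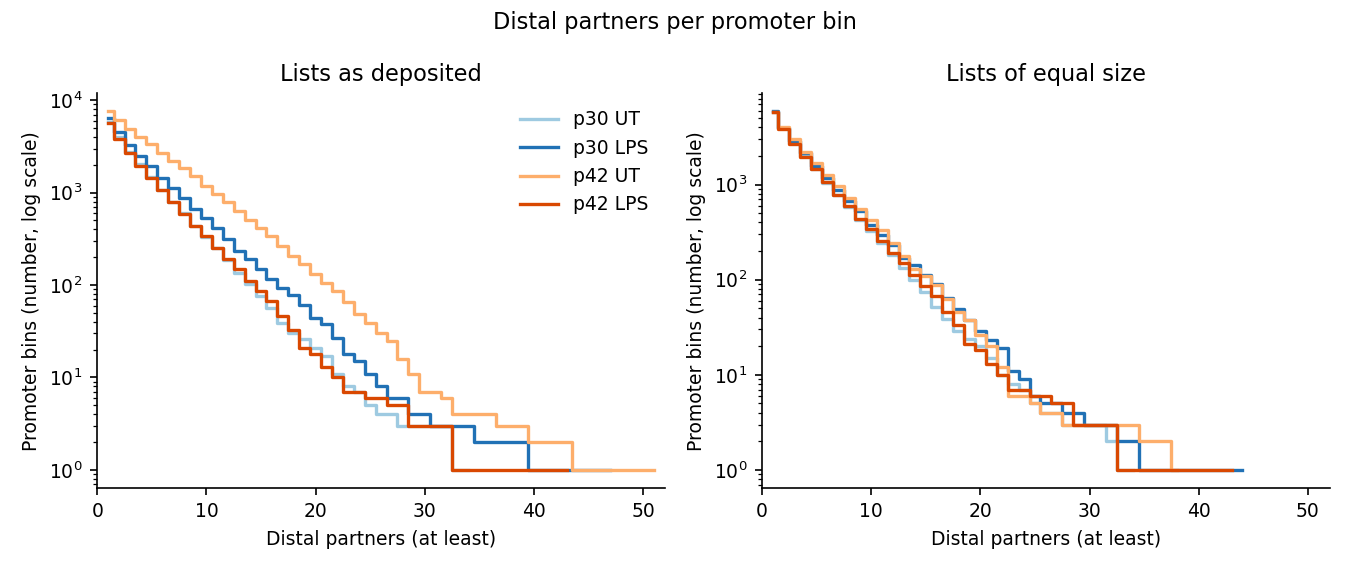
Number of promoter bins (log scale) with at least the number of distal partners on the x axis, for each of the 4 lists as deposited (left) and in lists of equal size (right). As deposited, p42 UT lies above the other lists up to 43 partners and meets p30 LPS at 44 to 47; in lists of equal size the 4 curves run close together up to about 10 partners.

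Neighbouring distal bins can belong to the same regulatory region. When adjacent partners of a promoter were merged, the mean was 2.15 and 2.41 in p30 (UT and LPS) and 3.12 and 2.12 in p42, and p42 UT remained the highest. Partner number moved with the coverage of the promoter bin, the number of reads that fell in it. Across promoter bins, Spearman's rho was 0.40 and 0.48 in p30 (UT and LPS) and 0.53 and 0.45 in p42, where the bins of a list share library and depth. In p42 UT the promoter bins in the lowest quartile of coverage had 2.64 partners on average and those in the highest quartile 8.83. The part of coverage in the partner counts was not tested.

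The promoters with most partners were ranked by their mean over lists of equal size, and their counts are given here as deposited. Irf2bp2, a transcriptional corepressor that binds IRF2, had 32 and 47 partners in p30 (UT and LPS) and 51 and 43 in p42, and in the equal-size list of p42 UT it had 37. Nearly all were upstream of the gene (57 of 59 over the 4 lists), as far as 380 kb away, and 21 of the 59 were in all 4 lists. Dusp1, a phosphatase that switches off MAP kinases, had 32, 34, 36 and 32, of which 29 of 37 were in all 4 lists. The partners of Dusp1 were thus nearly the same in the 4 lists, whereas those of Irf2bp2 varied. The bin shared by Anks1 and Taf11, a subunit of TFIID, had 24, 39, 43 and 32 partners, and Zfp36l2, which binds AU-rich mRNA, had 34, 25, 39 and 28. Def6 had 27, 30, 32 and 28 partners, and 31 of its 34 partners lay nearer to another start site.

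Most distal bins were joined to a single promoter bin. A distal bin was joined on average to 1.39 and 1.46 promoter bins in p30 (UT and LPS) and 1.59 and 1.37 in p42, and 24.6%, 27.6%, 32.8% and 23.9% of distal bins had 2 or more promoters. These shares became 24.5%, 26.1%, 25.5% and 23.9% in lists of equal size. The most connected distal bin, chr17:35170001-35175000 in the gene-dense class III region of the major histocompatibility complex, was joined to 20 promoter bins over the 4 lists. They included Hspa1a and Hspa1l (heat shock proteins), Neu1 (a sialidase), Ehmt2 (a histone methyltransferase) and Bag6, and numbered 10 and 14 in p30 (UT and LPS) and 17 and 9 in p42. The bin chr7:126710001-126715000, within Qprt, was joined to 19 promoter bins, among them Coro1a and Spn, which encode leukocyte proteins of the actin cortex and the cell surface, with 12, 11, 13 and 5 in the same order of lists.

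Most loops did not join a distal bin to its nearest start site. A loop was counted as skipping the nearest gene where another start-site bin lay fewer bins from the distal bin than the joined promoter, and a tie was not counted. Of the 51460 loops, 67.5% (67.1 to 67.9) skipped the nearest start-site bin. The share was 66.4% (65.7 to 67.0) and 65.4% (64.8 to 66.0) in p30 (UT and LPS) and 66.7% (66.3 to 67.2) and 64.7% (64.1 to 65.4) in p42, a range of about 2 percentage points. In 47.7% of the loops at least 1 other start-site bin lay between both ends, and in 19.8% the nearest start site was skipped although none lay between, because it was on the other side of the distal bin. A single start-site bin was passed over in 21.1%, 2 in 10.5%, 3 in 5.83% and 4 or more in 10.2% of the loops.

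Part of this share was fixed by the lists themselves. They hold 0 loops between adjacent bins, and the smallest distance is 10 kb, so a distal bin beside its nearest start-site bin cannot have a listed loop to it. This was so for 28.5% of the loops. Among the other 36777 loops, 54.6% skipped the nearest start-site bin, with 53.2% and 51.1% in p30 (UT and LPS) and 53.1% and 50.9% in p42. Counting only start-site bins with a peak as candidates for the nearest gene gave 64.0%.

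Skipping was more frequent the longer the loop. In p30 UT 31.0% of loops from 10 to 25 kb skipped the nearest start-site bin, 65.9% from 25 to 50 kb, 84.2% from 50 to 100 kb, 92.7% from 100 to 200 kb and 96.4% from 200 to 500 kb. The other lists gave nearly the same steps, 31.0%, 68.4%, 85.4%, 93.0% and 97.3% in p30 LPS, 31.0%, 66.1%, 84.0%, 92.4% and 97.1% in p42 UT, and 31.4%, 65.5%, 83.1%, 91.0% and 96.5% in p42 LPS. Start-site bins lay a median of 45 kb apart (quartiles 20 and 110 kb), and distal bins a median of 15 kb from the nearest of them. By definition a loop skips where it is longer than the distance to the nearest start-site bin. Part of the rise with distance is therefore given in advance, and the size of that part was not tested.

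**Figure D2:**
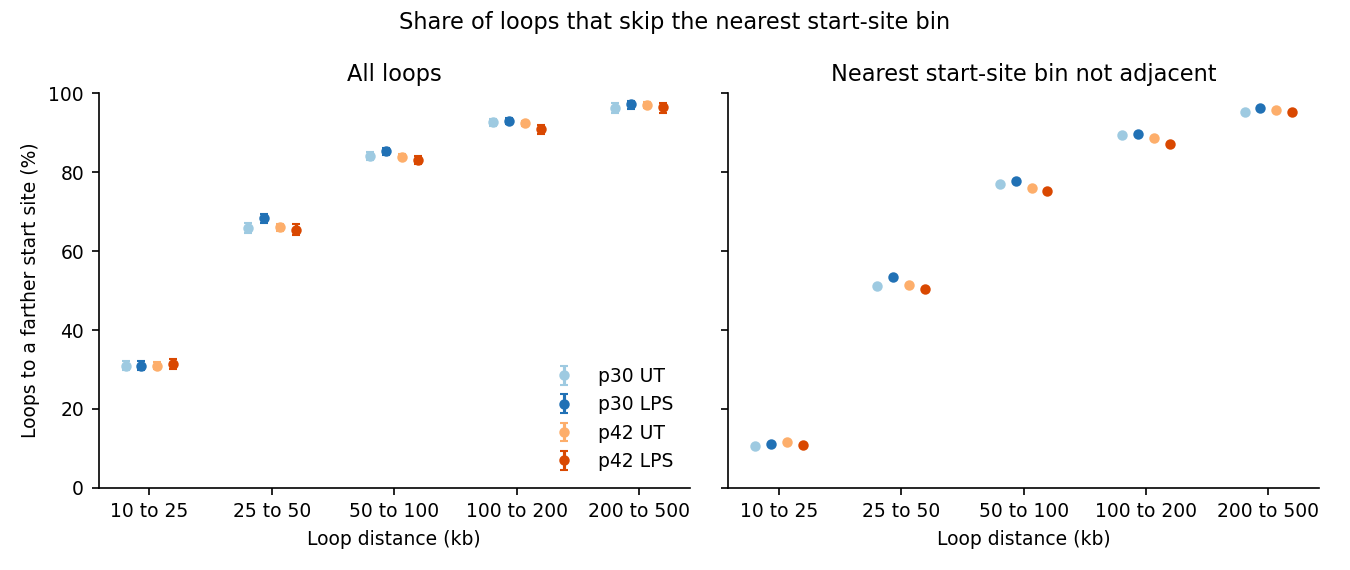
Share of loops (percent) that skip the nearest start-site bin, by loop distance (kb), in the 4 lists; bars in the left panel are 95% Wilson intervals. Left, all loops; right, loops whose distal bin is not beside its nearest start-site bin. In all 4 lists the share climbs from about 31% (left) or 11% (right) at 10 to 25 kb to over 95% at 200 to 500 kb.

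Among listed loops of the same distance, contacts were set side by side for the nearest and for farther promoters. All had passed the same q-value filter, which sets a lower limit on the contacts of both, so that similar medians are a description of the lists. Among loops of 50 to 100 kb whose distal bin was not beside the nearest start-site bin, the median contact count in p30 UT was 14 for the nearest (864 loops) and 15 for a farther promoter (2889 loops), and the ratio of observed to expected contacts was 5.48 and 5.42. In p42 UT the counts were 16 and 16 and the ratios 5.53 and 5.30. In p30 LPS the ratios were 5.72 and 5.63, and in p42 LPS 5.67 and 5.57. From 10 to 25 kb loops to a farther promoter had fewer contacts, 35 against 51 in p30 UT, and were longer within that class (median 20 against 10 kb). Loops that recurred skipped less often and were shorter. The share that skipped was 64.0% of the 9275 loops in all 4 lists (median distance 35 kb) and 70.6% of the 23485 loops in 1 list (55 kb).

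Counted by distal bin, the nearest gene was more often included. Of 30275 distal bins over the 4 lists, 36.2% were joined to the nearest start-site bin alone, 17.9% to the nearest and a farther one, and 45.8% to farther ones alone. Where the nearest start-site bin was not adjacent, these shares were 46.5%, 23.1% and 30.4%. Within single lists, 54.0% and 50.3% of all distal bins in p30 (UT and LPS) and 48.1% and 52.3% in p42 were joined to farther ones alone. Of the distal bins joined to farther promoters alone, 80.9% had a nearest start-site bin that itself carried H3K27ac, and 69.8% where that bin was not adjacent.

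Genes differed widely in this respect. All 16 partners of Ccl3, which encodes the chemokine MIP-1alpha, skipped the nearest start site, and all 16 lay beyond at least 1 other start-site bin. All 16 partners of Cebpe, the C/EBP factor of late granulocyte maturation, did so too, and 12 of them lay beyond another start-site bin. Of 17 partners of Fos, 13 were nearer to another gene (Tmed10 or Nek9). By contrast, 0 of 11 partners of Jun, 0 of 11 of Nfkbiz (an atypical inhibitor of NF-kB), 3 of 15 of Lmo2 and 3 of 26 of Runx1, both transcription factors of haematopoietic stem cells, skipped the nearest start site. The partners of Runx1 reached 470 kb and those of Erg, another stem cell factor, 495 kb, mostly within the gene's own body in the case of Erg (19 of 24).

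The median loop distance was 45 kb in p30 UT and p42 UT and 40 kb in both LPS lists, with quartiles of 20 and 85 kb in the UT lists and 20 and 80 kb in the LPS lists. It was 40 kb in p42 UT as well in lists of equal size. Loops over 100 kb made 18.2% and 16.9% in p30 (UT and LPS) and 18.6% and 16.7% in p42, and 18.1%, 16.2%, 14.9% and 16.7% in lists of equal size. Contact counts were lower at longer distance and observed to expected ratios higher. Where few contacts are expected a pair has to exceed them by more to be listed, so the filter itself favours high ratios at long distance. In p30 UT the median count was 50 at 10 to 25 kb and 10 at 200 to 500 kb, and the observed to expected ratio was 2.38 and 7.26.

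The distal bin overlapped the body of the joined gene in 27.6% of the loops, the body of another protein-coding gene in 49.5% and no protein-coding gene in 22.9%. Partners in the gene's own body were close (median 20 kb) and 24.8% of them skipped the nearest start site. Partners in another gene's body lay at a median of 60 kb and 91.2% skipped, while of those outside genes 67.8% skipped. Partners upstream of the start made 43.8% of the 45497 loops from bins with the start of 1 gene. A start of a long non-coding RNA lay in 14.4% of distal bins counted by loop, and a start of another, non-canonical protein-coding transcript in 10.7%.

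The loops that passed over most start sites while present in all 4 lists spanned gene clusters. The promoter bin of Pcdhb16, in the protocadherin beta cluster, was joined across 29 start-site bins and 405 kb to a bin in Diaph1, with 8 and 15 contacts in p30 (UT and LPS) and 7 and 10 in p42. Expected counts of that loop were 1.1 in each list. Ppp4c, a phosphatase subunit, was joined to the Qprt bin across 19 start-site bins with 10, 12, 9 and 8 contacts, and its neighbour Aldoa, a glycolytic enzyme, across 18 with 9, 16, 16 and 8. Eif4a1, a translation initiation factor, reached Gps2 and Eif5a across 19 start-site bins with 10, 10, 10 and 14 contacts. The loop from Tstd1 to Sdhc, a subunit of succinate dehydrogenase, crossed 17 start-site bins and had 31, 23, 21 and 18 contacts. These loops were chosen for the bins they cross, and their counts are low, so that the lists differ little beyond counting error.

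The comparison of p42 with p30 asks how promoter contacts differ between the full-length and the truncated isoform, and the comparison of LPS with UT how they differ after the stimulus. The 4 comparisons share lists in pairs and are not independent. Without LPS the p42 list held 1.98 times as many promoter to distal peak loops as the p30 list, and with LPS 0.795 times as many. In lists of equal size the ratios were 1.10 and 0.937. With LPS, the p30 list held 1.23 times as many as without it and the p42 list 0.496 times, or 1.07 and 0.908 in lists of equal size. For all loops the ratios as deposited were 1.97, 0.831, 1.18 and 0.497, close to those of the promoter loops.

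About 2 in 5 promoter loops were shared between any of these pairs of lists. Of the union, p42 UT and p30 UT shared 37.0% (16373 loops, 80.3% of the p30 list and 40.7% of the p42 list), p42 LPS and p30 LPS 40.7%, p30 LPS and p30 UT 41.8%, and p42 LPS and p42 UT 37.5%. For all loops the shares were 32.9%, 36.3%, 36.7% and 33.8%. Over the 4 lists, 18.0% of the promoter loops were in all of them and 45.6% in 1, of which p42 UT alone held 14238 (27.7% of the union). For all loops, 14.5% were in all 4 lists and 28.7% in p42 UT alone. A loop missing from a list is not shown to be absent, since the lists hold only loops past a q-value of 0.01.

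Among loops in both lists of a pair, contacts were set against the number of modelled contacts of each list, and a 2-fold difference was called. Of 16373 loops in both UT lists, 827 (5.05%) had 2-fold more contacts in p42, beside 4.32% of all shared loops, and 29 (0.177%) had 2-fold more in p30, beside 0.289%. Of 13047 loops in both LPS lists, 75 (0.575%) had 2-fold more in p42, beside 0.505% of all shared loops, and 287 (2.20%) 2-fold more in p30, beside 2.05%. Of 13407 loops in both p30 lists, 407 (3.04%) had 2-fold more with LPS, beside 2.89%, and 27 (0.201%) 2-fold more without it, beside 0.198%. Of 16443 loops in both p42 lists, 58 (0.353%) had 2-fold more with LPS, beside 0.376%, and 374 (2.27%) 2-fold more without it, beside 1.92%. The promoter loops thus lay near the background of all loops in each comparison. Scaled by expected count, fewer loops reached 2-fold in the larger direction, with 385 in p42 without LPS, 129 in p30 with LPS, 128 with LPS in p30 and 300 without LPS in p42, against 19, 39, 35 and 11 in the other direction. Over all shared loops the same scaling gave 1136 of 59069, 416 of 46110, 412 of 47004 and 906 of 59847. The other direction held 101, 131, 151 and 63 of them. Per modelled contact, the median log2 ratio of promoter loops was 0.24 for p42 over p30 without LPS and -0.16 with LPS. For LPS over UT it was 0.23 in p30 and -0.19 in p42, and for all loops the 4 medians were 0.20, -0.13, 0.22 and -0.13. The SD of these log2 ratios over promoter loops, 0.39 to 0.44, was close to the 0.42 to 0.43 that counting error alone gives.

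Some groups of genes had more distal partners in p42 than in p30. Partners were counted per gene in lists of equal size, and the counts are read against all 8364 genes with a partner in at least 1 of those lists. Without LPS 39.7% of these genes had more partners in p42 and 30.2% fewer, and with LPS 31.1% more and 40.3% fewer. As deposited, of 9191 genes, 78.5% had more partners in p42 and 6.48% fewer without LPS, and 21.2% more and 47.8% fewer with LPS, so that genes with more made 92.4% and 30.7% of those that differed. Of 23 myeloid differentiation genes with a partner, 20 had more in p42 without LPS and 2 fewer (87.0% and 8.70%), and with LPS 15 had more and 7 fewer (65.2% and 30.4%). Examples were Ncf1, a subunit of the phagocyte oxidase, with 10 and 6 partners in p30 (UT and LPS; 12 with LPS as deposited) and 14 and 14 in p42, and Itgam, the alpha chain of the integrin Mac-1, with 3, 2, 6 and 9. Spi1 had 5, 6, 6 and 8. Irf8, Lyz2, Cybb and S100a8 were among 11 of the 34 genes with no partner in these lists.

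Of 28 inflammatory cytokine and chemokine genes with a partner, 16 had more in p42 UT than in p30 UT and 3 fewer (57.1% and 10.7%), and with LPS 14 had more and 4 fewer (50.0% and 14.3%). As deposited, those with more made 52.4% of the inflammatory genes with more or fewer with LPS, beside 30.7% of all genes. Il6, which encodes interleukin-6, had 2 and 3 partners in p30 (UT and LPS) and 2 and 11 in p42. As deposited, Il6 had 2, 8, 4 and 11, so that with LPS p30 and p42 stood closer. Ccl3 had 7, 11, 14 and 10 and the neutrophil chemokine gene Cxcl3 had 1, 1, 6 and 3. Il1b had 0, 0, 0 and 2. Tnf, whose bin also holds the start of Lta, had 7 in each. Of 40 genes in the list, 12 had no partner, among them Il1a, Il12b and Cxcl1.

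All 6 C/EBP family genes had partners, and 4 of 6 had more in p42 both without LPS (0 fewer) and with LPS (1 fewer). In the lists as deposited 2 genes had more and 2 fewer with LPS. Cebpb, a C/EBP factor of emergency granulopoiesis and macrophages, had 10 and 15 partners in p30 (UT and LPS) and 19 and 18 in p42. Cebpe had 2, 1, 11 and 8, and Cebpd, an acute-phase C/EBP factor, had 5, 6, 11 and 7. In both p42 lists of equal size Cebpb, Cebpe and Cebpd had more partners than in either p30 list, whereas as deposited p30 LPS and p42 LPS tied for Cebpb (18 each) and Cebpd (7 each). Cebpa itself had 9, 4, 9 and 4, the same in both isoforms, and Ddit3, the stress-induced C/EBP factor CHOP, had 8, 7, 8 and 3. Of 21 stem and progenitor factors, 13 had more and 5 fewer in p42 without LPS (61.9% and 23.8%), and 10 more and 7 fewer with LPS (47.6% and 33.3%). As deposited, those with more made 47.1% of the genes with more or fewer with LPS, beside 30.7% of all genes. Erg was the most different, with 10, 5, 19 and 18. Kit, the stem cell factor receptor, had 3, 5, 6 and 5 (16 in p42 UT as deposited), Lmo2 had 12, 10, 15 and 14, and Zfpm1, the GATA cofactor FOG1, had 11, 8, 6 and 7.

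**Figure D3:**
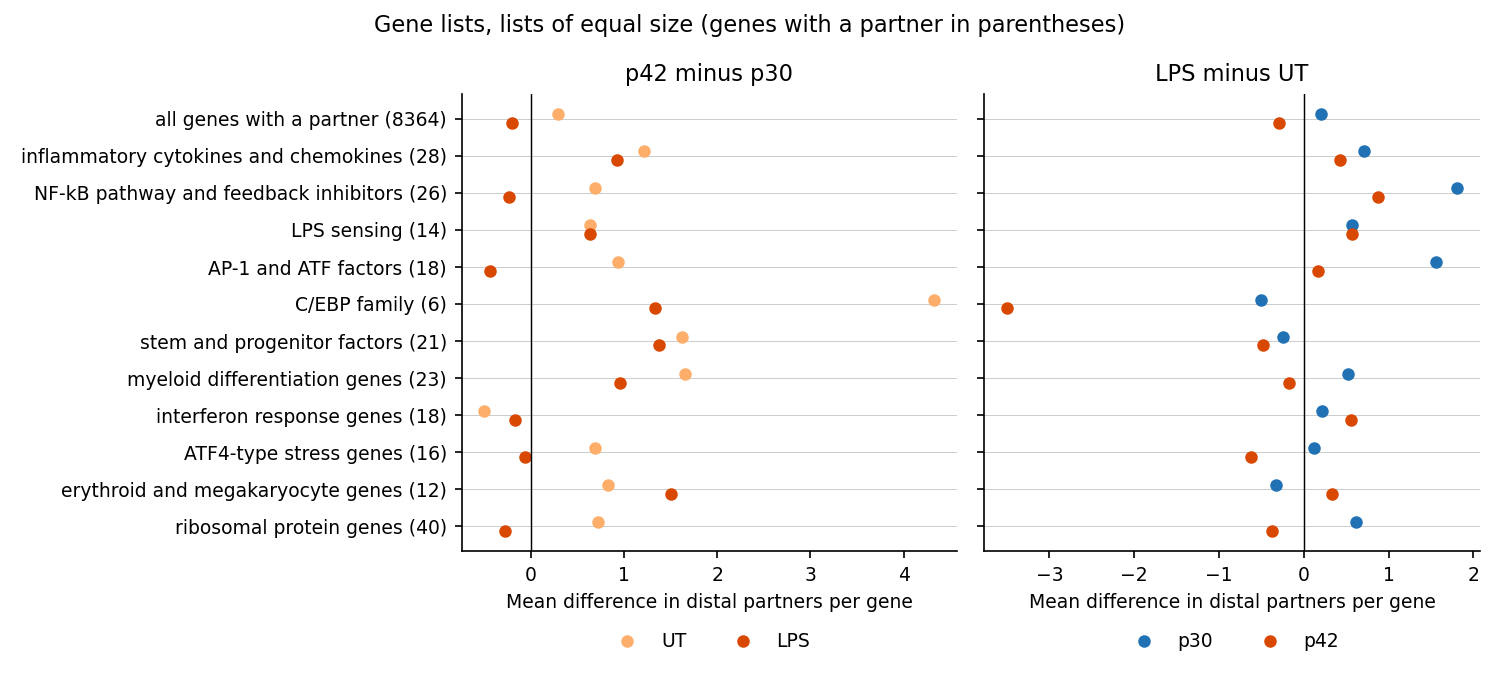
Mean difference in distal partners per gene in lists of equal size, for p42 minus p30 (left, UT and LPS) and LPS minus UT (right, p30 and p42), for all genes with a partner and for each gene list; the number of genes is in parentheses. The C/EBP family has the largest differences (4.33 for p42 minus p30 without LPS, -3.50 for LPS minus UT in p42), and the NF-kB pathway lies right of 0 for LPS minus UT in both isoforms (1.81 in p30, 0.88 in p42), although its p42 value is negative in the lists as deposited.

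The genes with the largest differences that kept their sign under both treatments are given by a rule that chose them for those differences, so their values are a description. More partners in p42 were found for Erg, Dgkd, Bhlhe40, Ppp1r15b and Cebpe. Dgkd, a diacylglycerol kinase, had 11 and 11 partners in p30 (UT and LPS) and 21 and 20 in p42. Bhlhe40, a transcriptional repressor, had 11, 8, 20 and 18. Ppp1r15b, which recruits the phosphatase for eIF2alpha, had 4, 9, 13 and 16. Fewer partners in p42 were found for Atp2b4, a plasma membrane calcium pump, with 22, 16, 16 and 7, and for Cd244a, a receptor of natural killer and myeloid cells, with 15, 12, 7 and 7. Rnf141 had 18, 17, 10 and 11, although as deposited it had 19 in p30 UT and 21 in p42 UT. The counts were, for Mrpl23, 18, 12, 11 and 6, and for Wasf2, an activator of actin branching, 17, 16, 11 and 10. As deposited, the difference without LPS was all but lost for Atp2b4 (22 in both p30 UT and p42 UT), Mrpl23 (18 and 17) and Wasf2 (17 and 16). For Cd244a it was smaller (15 and 12).

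Few single loops differed in the same direction in both treatments. Among the 9275 loops in all 4 lists, 28 had 2-fold more contacts in p42 under both treatments (0.302%), 3 had 2-fold more in p30 under both (0.0323%), and 12 were 2-fold different in opposite directions. Of the 31032 loops of any kind in all 4 lists, 0.209% had 2-fold more in p42 under both and 0.0354% in p30. The loop from Exosc4, a subunit of the RNA exosome, to a bin in Spatc1 at 55 kb had 14 and 16 contacts in p30 (UT and LPS) and 55 and 53 in p42. Dock8, a guanine nucleotide exchange factor of leukocytes, had 18, 17, 79 and 56 contacts with a bin 35 kb upstream. The loop from Vsir, the checkpoint ligand VISTA, into Cdh23 had 25, 19, 79 and 65. Lcp1, the leukocyte actin bundler L-plastin, had 30, 20, 79 and 55 contacts with a bin 105 kb upstream. In the other direction, the transcription factor gene Klf7 had 40 and 32 contacts in p30 (UT and LPS) and 19 and 14 in p42 with a bin 180 kb upstream. Dusp13b had 57, 30, 23 and 16, and Rps19bp1 18, 15, 9 and 8.

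Loops listed for p42 under both treatments but never for p30 numbered 1698 in lists of equal size, from 1305 promoter bins. They made 4.38% of the promoter loops in those lists, beside 4.30% for all loops. Of these 1698, 60.7% (58.4 to 63.0) skipped the nearest start-site bin. Loops listed for p30 under both treatments but never for p42 numbered 1397, from 1166 promoter bins, and 68.5% (66.0 to 70.9) skipped. They made 3.60% of the promoter loops, beside 3.63% for all loops. Of the 8209 loops in all 4 lists of equal size, 64.1% skipped. Loops of 1 promoter bin are not independent, and each group is 1 list, so the shares are a description. As deposited the shares were 63.6% of 2781 loops and 71.3% of 726 loops. Median distances were 40 and 45 kb in lists of equal size. In lists of equal size, loops listed with LPS in both isoforms but never without it numbered 1136, of which 67.2% (64.4 to 69.8) skipped. The converse loops, listed without LPS alone, numbered 1413, of which 65.7% (63.2 to 68.1) skipped. These sets made 2.93% and 3.65% of the promoter loops, beside 3.18% and 3.49% for all loops.

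With LPS, more genes of the NF-kB pathway and its feedback inhibitors had additional partners than lost them, in lists of equal size. Of all genes, 38.9% of 8364 had more partners with LPS in p30 and 30.4% fewer, and in p42 27.5% had more and 39.1% fewer. Of 26 NF-kB pathway genes, 19 had more and 5 fewer in p30 (73.1% and 19.2%), and 15 more and 6 fewer in p42 (57.7% and 23.1%). As deposited, the direction in p42 was the opposite, with 1 more and 20 fewer, beside 432 more and 7418 fewer of all genes. Tnfaip3, the ubiquitin-editing inhibitor A20, had 6 and 17 partners in p30 (UT and LPS) and 9 and 16 in p42. As deposited, the counts of Tnfaip3 were 6, 21, 20 and 16, so that in p42 the order of LPS and UT was the opposite. Nfkbia, which encodes the inhibitor IkB-alpha, had 7, 16, 16 and 18, so that p30 UT stood alone as the lowest list, and as deposited 7, 19, 23 and 18. Bcl3, an atypical IkB protein, had 1, 7, 3 and 6, and Socs3, an inhibitor of cytokine receptor signalling, 8, 11, 11 and 12. Tnip1, a partner of A20, had 6, 4, 8 and 4. Of 14 LPS sensing genes, 9 had more and 4 fewer in p30 (64.3% and 28.6%) and 5 more and 3 fewer in p42 (35.7% and 21.4%). Ticam1, the adaptor TRIF, had 4, 7, 5 and 10, Tlr2 had 1, 2, 3 and 6, and Tlr4 had 0, 0, 0 and 2.

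Of 18 genes of AP-1 and ATF factors, 13 had more partners with LPS in p30 and 2 fewer (72.2% and 11.1%), while in p42 6 had more and 6 fewer. For p42 against p30 the counts were 10 more and 3 fewer without LPS (55.6% and 16.7%), and 7 more and 10 fewer with LPS (38.9% and 55.6%). Fos had 11 and 10 partners in p30 (UT and LPS) and 14 and 12 in p42, and Jun 3, 3, 6 and 6. Atf4 had 1, 5, 2 and 2, Atf5 3, 8, 5 and 5, and Fosl2 0, 1, 2 and 4. Jdp2, a repressor that dimerizes with JUN, had 4, 5, 4 and 9, and Junb had 2 partners in p30 LPS and 0 in the others.

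Of the inflammatory cytokine and chemokine genes, 12 had more partners with LPS in p30 and 5 fewer (42.9% and 17.9%), and 12 more and 10 fewer in p42 (42.9% and 35.7%). Ccl5, a T cell chemokine, had 0 and 4 partners in p30 (UT and LPS) and 3 and 5 in p42, and Csf3, which encodes G-CSF, had 7, 8, 8 and 11. For myeloid differentiation genes the counts were 12 more and 5 fewer in p30, and 10 more and 7 fewer in p42. For stem and progenitor factors they were 9 more and 11 fewer in p30, and 4 more and 12 fewer in p42 (19.0% and 57.1%). All 6 C/EBP family genes had fewer with LPS in p42, and 4 of 6 in p30. In the lists as deposited, where p42 LPS is much shorter than p42 UT, the direction of LPS against UT in p42 was the opposite for 3 of these groups. There, genes with more partners made 22.2% of the inflammatory, 4.76% of the NF-kB pathway and 9.52% of the myeloid genes that had more or fewer, beside 5.50% of all genes. As deposited, 45.8% of all genes had more with LPS in p30 and 22% fewer, and in p42 4.70% had more and 80.7% fewer.

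**Figure D4:**
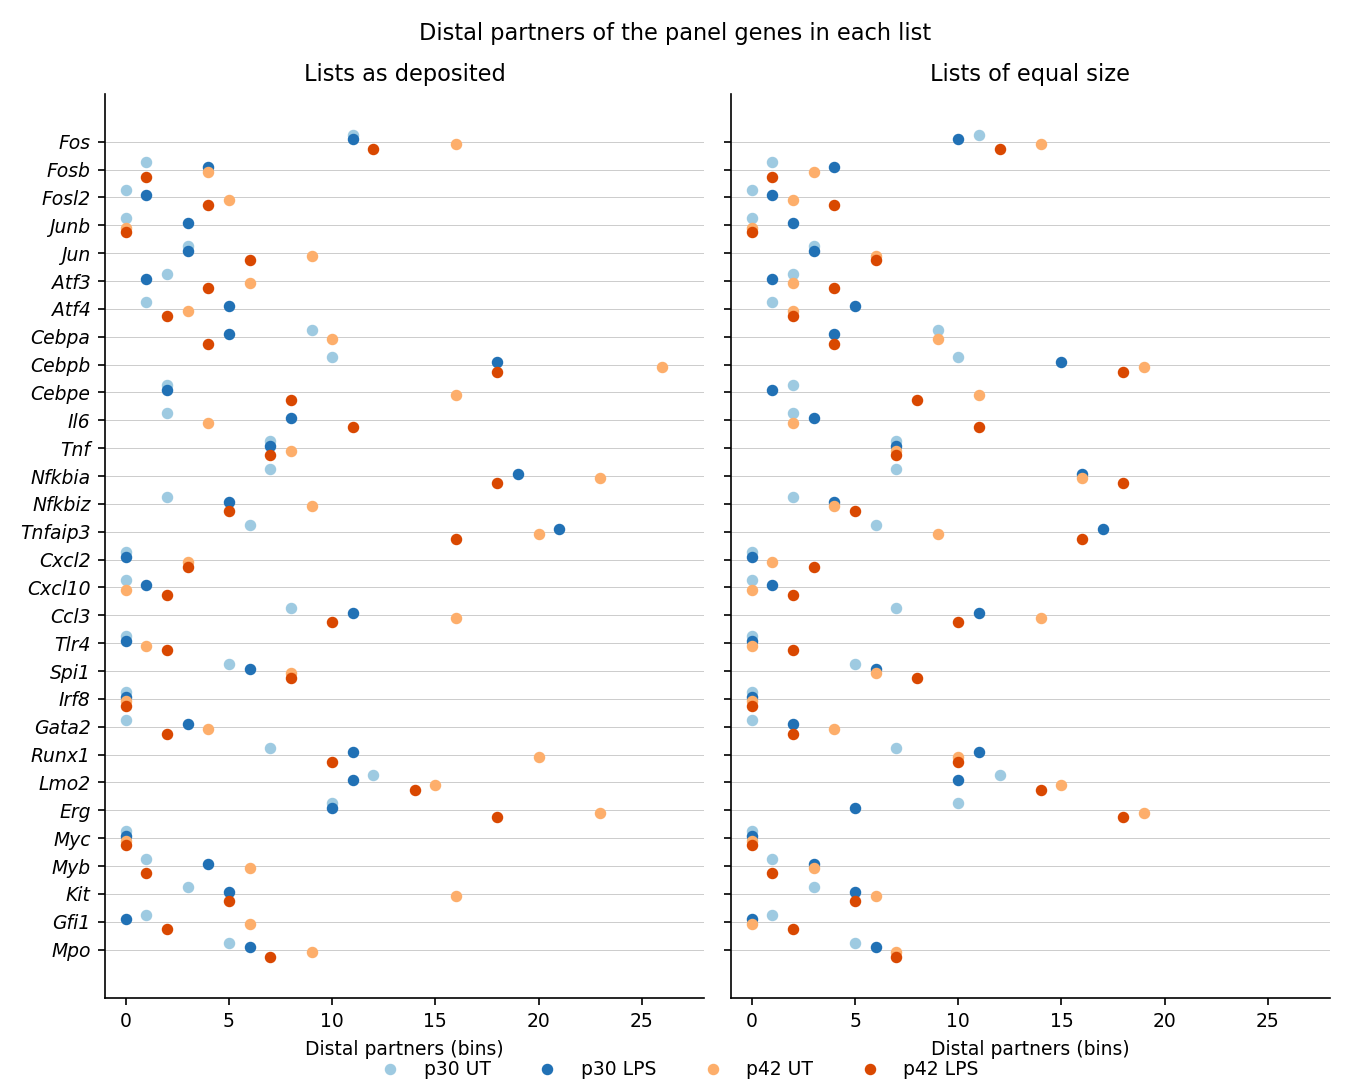
Number of distal partners (5 kb bins) of the 30 panel genes in the 4 lists, as deposited (left) and in lists of equal size (right). Erg and Cebpe have more partners in both p42 lists than in both p30 lists in either panel, Tnfaip3 in lists of equal size has 16 and 17 with LPS and 6 and 9 without, and Irf8 and Myc have 0 throughout.

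Ranked for a difference of like sign in both isoforms, and so chosen for it, the genes with more partners were led by Tnfaip3. Rap1b, a small GTPase of integrin activation, had 6 and 13 partners in p30 (UT and LPS) and 4 and 11 in p42. Irf2bp2 had 31, 44, 37 and 43, and Ifnar2, a chain of the type I interferon receptor, 6, 15, 9 and 13. As deposited, the order in p42 was the opposite for Rap1b (20 without and 11 with LPS), Irf2bp2 (51 and 43) and Ifnar2 (26 and 13). The bin of Myl12a, a myosin regulatory light chain, and Gm49909 had 1, 6, 5 and 15, and as deposited it had 15 in both p42 lists. Fewer partners with LPS were found for Ramp1, a receptor activity-modifying protein, with 20, 14, 20 and 11, and for Atp2b4 with 22, 16, 16 and 7. Tex2 had 10, 4, 16 and 7, the phosphoinositide phosphatase gene Mtmr3 10, 4, 17 and 11, and Mrpl23 18, 12, 11 and 6. As deposited, the difference of Tex2 in p30 was smaller, with 10 without and 8 with LPS.

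Contacts were compared over the loops of a gene that were in all 4 lists, so that the same bin pairs are counted in each. Over all 9275 such loops, contacts per modelled contact were 1.31 times as many in p42 as in p30 without LPS and 0.850 times with LPS, and LPS over UT gave 1.24 in p30 and 0.803 in p42. Folds of single genes are given relative to these values. A second fold divides by the caller's expected count, which takes in the coverage of both bins.

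For Cebpe the loop in all 4 lists, to the printed window at 80 kb, had 11 and 10 contacts in p30 (UT and LPS) and 32 and 23 in p42. Relative to all promoters this was 2.10 times as many in p42 without LPS (1.03 to 4.63) and 2.48 times with LPS (1.13 to 5.83), and by expected count 1.83 and 1.82. The 7 loops of Cebpb had 105, 119, 196 and 187 contacts, 1.35 times as many in p42 without LPS (1.06 to 1.73) and 1.69 times with LPS (1.34 to 2.15), and by expected count 1.22 and 1.34. The loop to its printed window had 18, 21, 38 and 37 contacts. For Fos the 7 loops had 124, 112, 208 and 143 contacts, with ratios of p42 over p30 of 1.21 (0.967 to 1.53) and 1.38 (1.07 to 1.78), so that the interval without LPS includes 1.

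Mpo, Spi1, Erg and Lmo2 had more contacts in p42 relative to all promoters, but not all of it remained after the expected count was taken in. For Runx1 and Myb the intervals held 1. Runx1 had ratios of p42 over p30 of 1.01 (0.780 to 1.31) without LPS and 1.02 (0.764 to 1.35) with LPS, and Myb 1.04 (0.551 to 2.02) and 0.872 (0.432 to 1.74). Mpo, the myeloperoxidase of azurophil granules, had 281 and 173 contacts in p30 (UT and LPS) and 606 and 262 in p42 over 4 loops. The ratio of p42 over p30 was 1.56 (1.35 to 1.80) without LPS and 1.63 (1.34 to 1.99) with LPS, and by expected count 1.07 and 1.12. Spi1 had 532, 480, 935 and 603 contacts over 4 loops, with ratios of 1.27 and 1.35, and 1.06 and 1.01 by expected count. Of these, the loop to the printed window within the gene had 183, 189, 363 and 234. Erg had 271, 248, 503 and 329 contacts over 5 loops (1.34 and 1.43, by expected count 1.10 and 1.05). The 10 loops of Lmo2 had 229, 199, 446 and 229 contacts, with ratios of 1.41 (1.20 to 1.66) and 1.24 (1.02 to 1.51), and 1.20 and 1.01 by expected count.

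**Figure D5:**
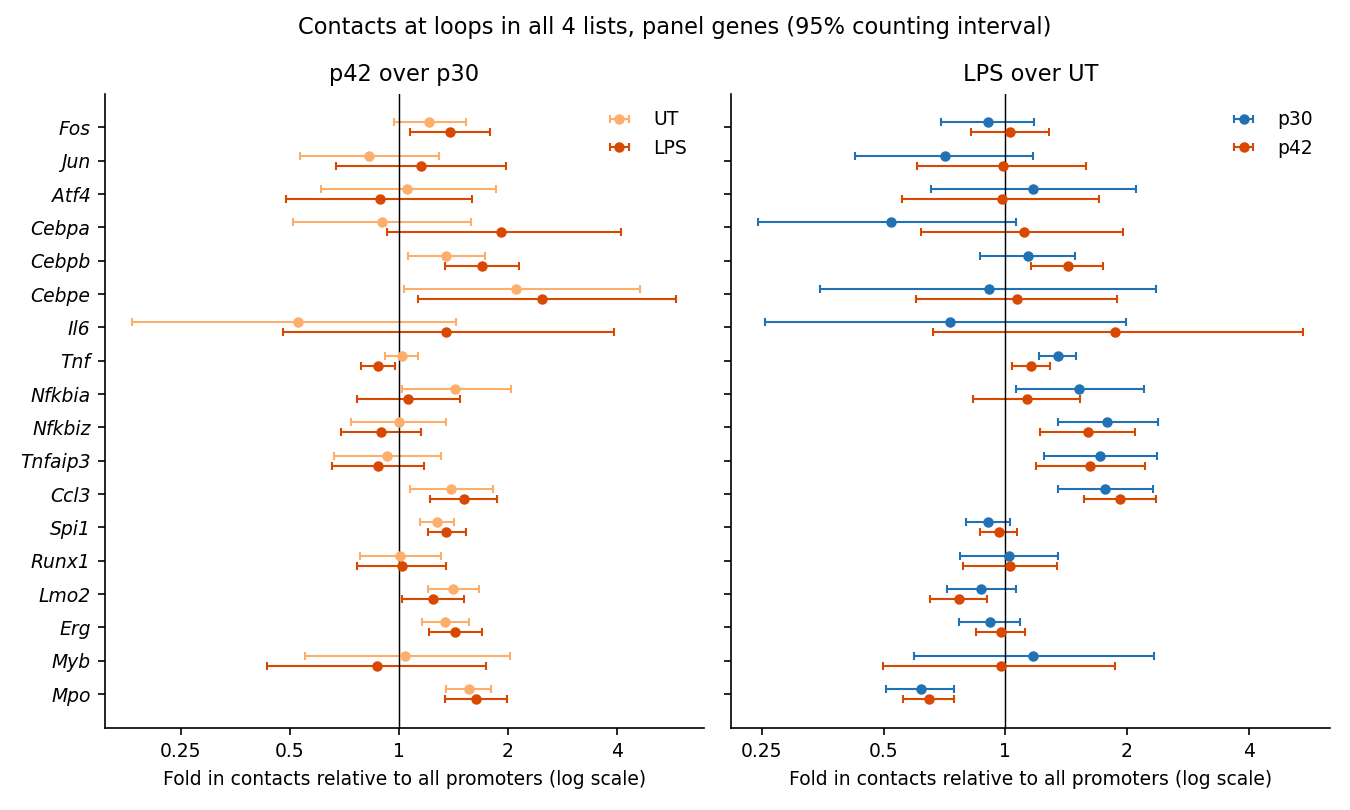
Fold in contacts relative to all promoters (log scale) over the loops of each panel gene that are in all 4 lists, for p42 over p30 (left, UT and LPS) and LPS over UT (right, p30 and p42); points are folds and bars exact 95% intervals for counting error. Ccl3, Nfkbiz and Tnfaip3 lie above 1 for LPS over UT in both isoforms and Mpo below 1; Cebpe, Mpo and Cebpb lie above 1 for p42 over p30 under both treatments.

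Ccl3, Tnfaip3 and Nfkbiz had more contacts with LPS, relative to other promoters, in both isoforms. The 6 loops of Ccl3 had 89 and 157 contacts in p30 (UT and LPS) and 171 and 220 in p42. LPS over UT was 1.77 (1.35 to 2.32) in p30 and 1.92 (1.57 to 2.36) in p42, and by expected count 1.5 and 1.48. The loop to the printed window had 22, 48, 46 and 76 contacts, the highest count in p42 LPS. For Tnfaip3 the 5 loops had 63, 108, 81 and 88 contacts, with folds of 1.72 (1.25 to 2.38) and 1.62 (1.19 to 2.22), and 1.37 and 1.20 by expected count. Nfkbiz had 79, 141, 109 and 117 contacts over 2 loops, with folds of 1.79 (1.35 to 2.39) and 1.6 (1.22 to 2.10), and 1.31 and 1.41 by expected count. Nfkbia, with 52, 79, 103 and 78 contacts over 3 loops, had folds of 1.52 (1.06 to 2.20) in p30 and 1.13 (0.832 to 1.53) in p42, and Tnf, with 579, 778, 815 and 633 over 7 loops, 1.35 (1.21 to 1.5) and 1.16 (1.04 to 1.29). By expected count they were 1.27 and 0.994 for Nfkbia and 1.20 and 1.05 for Tnf. Cebpb had 1.14 (0.866 to 1.49) in p30 and 1.43 (1.16 to 1.75) in p42. The intervals of Fos, Jun and Il6 held 1 in both isoforms, with folds of 0.905 and 1.03, 0.709 and 0.985, and 0.729 and 1.87. Mpo was lower with LPS, 0.617 (0.508 to 0.748) in p30 and 0.646 (0.557 to 0.748) in p42, and 0.865 and 0.907 by expected count. Ccl3 also had more contacts in p42 than in p30, 1.39 (1.07 to 1.82) without LPS and 1.51 (1.22 to 1.87) with LPS.

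Motif shares of the distal partners lay near those of all peak bins, of which they are a part. Of the distal partner bins, 61.8% held an AP-1 match, beside 60.3% of all peak bins in the lists and 54.0% of all 5 kb bins of the genome. The composite of C/EBP and ATF was in 11.4%, beside 11.6% and 15.1%, the NF-kB match in 53.3%, beside 53.9% and 53.6%, and the C/EBP match in 0.545%, beside 0.611% and 0.401%. In peak bins that held no start site and were in no promoter loop, the shares were, in this order of motifs, 60.5%, 12.2%, 53.7% and 0.480%. Distal bins joined to the nearest start site alone held an AP-1 match in 61.9% and those joined to farther ones alone in 61.3%. Distal bins were also sorted by the equal-size lists in which they had any promoter loop, whichever promoter it joined. A bin joined to another promoter in the other isoform or treatment was thus left out. Of 1116 distal bins in both p42 lists and no p30 list, 63.5% (60.7 to 66.3) held AP-1 and 12.7% (10.9 to 14.8) the composite. For the 847 bins in both p30 lists and no p42 list the shares were 63.9% (60.6 to 67.0) and 9.21% (7.4 to 11.3). Their GC content was 47.0%, against 44.4% for the p42 bins. Of 651 distal bins in both LPS lists and no UT list, 52.2% (48.4 to 56.0) held an NF-kB match. The share was the same for the 866 bins in both UT lists and no LPS list (48.9 to 55.5).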

How the data were processed

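H3K27ac HiChIP was performed by the authors with a kit that fragments chromatin with micrococcal nuclease, on 8 samples (4 groups of 2 replicates, HPC-7 cells). Per the methods, reads were aligned to mm39 with BWA-MEM (0.7.17), duplicates were removed with pairtools, and loops were called with FitHiChIP. The names of the deposited lists give 5 kb bins and a q-value of 0.01. The deposited lists hold 1 table per group, and how replicates were pooled is not given in the sources used here. The deposited contact count counts ligation products that join both bins, as a whole number without normalization. The deposited expected count is the caller's estimate from distance and coverage. The deposited probability, a fraction, is the expected count per modelled contact. The deposited p-value and q-value are the caller's binomial p and its adjusted value, and the lists hold significant pairs alone, so contacts of an unlisted pair are unknown.

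Members and gene lists were chosen with earlier results of these data known. Loops were assigned to canonical protein-coding starts of GENCODE M39 (21757 starts, 16 names with over 1 gene model, of which the longest was kept in gene lists). The nearest start site was counted in bins from the distal bin. Loops with identical bins were taken as shared. Equal-size lists keep the 78591 loops with the smallest q-values. Modelled contacts are the expected count divided by the probability. Contact folds have exact binomial intervals and shares have Wilson intervals (95%, counting error only). With 1 pooled list per group no test was run. Peak flags were equal between lists for all 75822 bins. Named genes are a panel of 30, the 5 promoters with most partners, the 5 genes per direction with the largest difference of the same sign under both treatments or in both isoforms, the 5 loops that skip most start sites, and the 5 loops per direction with the largest contact difference of the same sign, in all 4 lists. Of the 13 gene lists, interferon response, ATF4-type stress, erythroid and megakaryocyte, and ribosomal protein genes are described in the closing section. Motif matches were exact, on both strands of GRCm39. The counting steps were tested on simulated data. Alternatives were a q-value of 0.001, equal-size or deposited lists, a start in the bin or a bin beside it, a minimum distance of 20 kb, starts of any protein-coding transcript, merged distal bins, nearest start sites with a peak, scaling by expected count, and at least 40 contacts over both lists. Python 3.11.15, numpy 2.4.6, pandas 2.3.3, scipy 1.17.1 and matplotlib 3.10.9 were used.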

Additional observations from a re-analysis of the deposited data

Results flagged for a closer look

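The number of promoter to distal peak loops differed in opposite directions between groups. LPS minus UT was 4753 in p30 and -20293 in p42, and p42 minus p30 was 19895 without LPS and -5151 with LPS. In lists of equal size these differences were 1366, -2026, 2045 and -1347. The mean number of distal partners per promoter bin went the same ways, 0.48, -1.84, 1.85 and -0.47 as deposited, and 0.20, -0.31, 0.35 and -0.16 in lists of equal size. With 1 pooled list per group the difference between these differences was not tested, and the same 4 lists enter each of them.

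Single genes of the panel also differed in opposite directions in lists of equal size, by a few partners and likewise untested. For LPS minus UT, the values in p30 and p42 were 3 and -2 for Fosb, 5 and -1 for Cebpb, 4 and -4 for Ccl3, 2 and -2 for Gata2 and Myb, and 2 and -1 for Kit. For p42 minus p30, the values without and with LPS were 2 and -3 for Fosb, 1 and -3 for Atf4, 3 and -1 for Tnfaip3 and Runx1, 7 and -1 for Ccl3, and 2 and -2 for Myb.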

How the results depend on the processing

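No paired analysis was possible because each group has 1 list in which both replicates are pooled, so leaving out a replicate could not be done either. Ratios of loop number and the gaps between lists in partners per promoter rest on list length, single contact differences on counts of about 20, and the skip share on the start sites counted and on bins beside them. The causes of the changes below were not tested unless the setting names them. As deposited, p42 UT is the longest list.

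In lists of equal size the p42 UT list held 22010 promoter loops, the ratio of p42 to p30 without LPS was 1.10 and that of LPS to UT in p42 0.908. Shared shares of the union were 43.9% (p42 and p30, UT), 41.5% (LPS), 42.4% (LPS and UT, p30) and 45.6% (p42), 66.3% skipped, and 7 loops had 2-fold more contacts in p30 UT than p42 UT and 13 more in p42 LPS than p42 UT. In the same order of comparisons, the shared shares were 35.9%, 39.8% and 40.3% (first 3) with a start in the bin or a bin beside it, 34.9%, 38.3%, 39.5% and 35.3% beyond 20 kb, 36.2%, 39.8%, 40.7% and 37.0% with any protein-coding transcript, 40.4%, 45.3%, 46.6% and 40.8% with merged distal bins, and 35.4% (p42 and p30, UT) and 35.8% (LPS and UT, p42) at a q-value of 0.001.

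The skip share was 66.1% at a q-value of 0.001, 83.0% with a start in the bin or a bin beside it, 77.5% beyond 20 kb, 77.1% with any protein-coding transcript, 70.9% with merged bins and 64.0% with nearest start sites that carry a peak. In 2 alternatives added after seeing the data it was 54.6% without distal bins beside the nearest start site and 65.4% without distal bins holding another start. The median distance was 40 kb with a start in the bin or a bin beside it, 60 kb beyond 20 kb and 50 kb with merged bins. With a start in the bin or a bin beside it p42 LPS had 29980 loops. Merging left 12639 and 15340 loops in p30 (UT and LPS) and 23623 and 12203 in p42, and 2.15, 2.41, 3.12 and 2.12 partners per promoter.

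Counts of 2-fold loops, more in p42 UT or p30 UT, p42 LPS or p30 LPS, p30 LPS or p30 UT, and p42 LPS or p42 UT, were 528, 15, 43, 177, 254, 12, 32 and 210 at a q-value of 0.001, and 310, 10, 32, 138, 172, 11, 24 and 131 with merged bins. Scaled by expected count, the first 5 were 385, 19, 39, 129 and 128, and p42 LPS over p42 UT 11. With at least 40 contacts over both lists, 10 had more in p30 UT than p42 UT, 49 in p42 LPS than p30 LPS, 249 in p30 LPS and 12 in p30 UT of the p30 pair, and 21 in p42 LPS than p42 UT. With a start in the bin or a bin beside it, 44 had more in p30 UT than p42 UT. Apart from the scaling by expected count, these settings were counted over promoter loops alone, so no share over all loops stands beside them.

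For gene lists, the share with more partners among genes with more or fewer is read beside that of all genes, as deposited 92.4% (p42 over p30, UT), 30.7% (LPS), 67.5% (LPS over UT, p30) and 5.50% (p42). It was, as deposited, for inflammatory genes 96.2% (p42 over p30, UT), 52.4% (LPS), 88.2% (LPS over UT, p30) and, reversed, 22.2% (p42). NF-kB pathway genes gave 83.3%, 15% and, reversed for LPS over UT in p42, 4.76%. AP-1 and ATF factors gave 94.4% (p42 over p30, UT) and 0% (LPS over UT, p42), stem and progenitor factors 94.7%, 47.1% (p42 over p30, LPS, reversed) and 0% (LPS over UT, p42), and myeloid genes 100% (p42 over p30, UT) and 9.52% (LPS over UT, p42, reversed). With a start in the bin or a bin beside it, inflammatory genes gave 73.9% (LPS over UT, p42) and the C/EBP family 100% (p42 over p30, LPS). Of the named genes, 5 reversed as deposited, Rnf141 (2, p42 minus p30, UT) and, for LPS minus UT in p42, Tnfaip3 (-4), Rap1b (-9), Irf2bp2 (-8) and Ifnar2 (-13).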

Other observations

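The remaining gene lists were counted in the same way, in lists of equal size. Of all genes with a partner, 39.7% had more and 30.2% fewer in p42 without LPS and 31.1% and 40.3% with LPS, and for LPS over UT 38.9% and 30.4% in p30 and 27.5% and 39.1% in p42. Of the interferon response genes, 3 of 18 with a partner had more in p42 than in p30 without LPS and 8 fewer (16.7% and 44.4%), and 4 had more and 7 fewer with LPS (22.2% and 38.9%). With LPS 9 had more and 5 fewer in p30, and 7 more and 3 fewer in p42. Irf1, an early transcription factor of the response, had 12 and 12 partners in p30 (UT and LPS) and 11 and 10 in p42, and Usp18, its negative regulator, 2, 5, 3 and 5. Ifit1, Ifit2, Ifit3 and Isg15 had none. Of 16 ATF4-type stress genes 5 had more and 7 fewer in p42 without LPS, and 5 more and 6 fewer with LPS. LPS over UT gave 7 more and 7 fewer in p30, and 2 more and 7 fewer in p42. Sesn2, a stress-induced regulator of mTORC1, had 3, 5, 9 and 4.

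Of 12 erythroid and megakaryocyte genes with a partner, 6 had more and 2 fewer in p42 without LPS, and 9 more and 3 fewer with LPS (75% and 25%). LPS over UT gave 5 more and 5 fewer in p30, and 4 more and 4 fewer in p42. Nfe2, a globin and platelet gene activator, had 13 and 11 partners in p30 (UT and LPS) and 12 and 16 in p42, and Klf1, the erythroid Kruppel-like factor, had 0, 1, 4 and 2. Of 40 ribosomal protein genes, 21 had more and 9 fewer in p42 without LPS, and 15 more and 17 fewer with LPS, and LPS over UT gave 23 more and 9 fewer in p30, and 12 more and 18 fewer in p42. The ribosomal genes thus leaned the same way as all genes in each of the 4 comparisons.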
